A study of Homo sapiens and Mus musculus with 69 samples.

Results

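COR-L88 cells, an established small cell lung cancer (SCLC) line, were compared with and without *STING1* KO under TAS1440, a small-molecule inhibitor of the histone demethylase LSD1. The comparison took the 3 libraries labelled STING_KO with TAS1440 (numbered 43 to 45) against the 3 libraries of COR-L88 cells with TAS1440 and no KO label, called intact here (13 to 15), which makes 6 of the 69 libraries of the series. To see which differences were there without the inhibitor, the 3 *STING1* KO libraries with DMSO, the solvent (40 to 42), were set against the 3 intact DMSO libraries (10 to 12). The labels name line, KO and agent and give neither dose nor time, and the methods of the study give 28 days for its COR-L88 experiments and 100 nM TAS1440. Another COR-L88 group, treated with TAS1440 plus a γ-secretase inhibitor (GSI) that blocks Notch receptor cleavage, entered the model and the filter on low values, and its levels are given for a few genes without a comparison. The KO was made with CRISPR/Cas9, the study shows several single-cell KO clones, and the labels do not say which clone or how many these libraries came from, so that a trait of a clone and an effect of the KO cannot be told apart. The labels also do not say that the 3 libraries of a group were separate cultures, and *P* values measure the spread between these libraries, which may be technical.

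STING, the product of *STING1*, is the adaptor through which the DNA sensor cGAS, activated by DNA in the cytosol, switches on the kinase TBK1, the transcription factor IRF3 and NF-κB, and with them interferons and interferon-stimulated genes. Interferons raise the MHC class I pathway, in which proteasome subunits cut peptides, the TAP transporter moves them into the endoplasmic reticulum and HLA heavy chains with β2-microglobulin show them to CD8 T cells. Neuroendocrine SCLC is known for low MHC class I and for a program of neuronal and secretory genes, which Notch signaling represses, and LSD1 inhibitors are known to turn on Notch in such cells.

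All values are log2(RPKM + 1), in which RPKM is the read number scaled to transcript length and library size, and differences are KO minus intact on this scale, which understates changes of low genes. The table holds no read counts. Judged by the smallest increments among low genes, the 12 libraries differed in size from 0.735 to 1.24 relative to the middle library of the human table. Of the 20516 genes, 13134 reached 1 in 3 or more of the 15 COR-L88 libraries and were tested with limma, and a gene was called at a Benjamini-Hochberg adjusted *P* under 0.05 and an absolute difference of at least 1. Neuroendocrine markers were found in intact cells with DMSO: *INSM1* was 6.71 to 7.06 and *GRP* 6.38 to 6.77. *NEUROD1*, the factor that names one of the SCLC types, was 5.56 to 5.75. The labels give no SCLC type, and these values do not settle it. *PTPRC* of leukocytes was at most 0.043 and *COL1A1* of fibroblasts at most 0.50 in any of the 15 libraries. Library 44 stood apart from the other KO libraries with TAS1440: the median value of the genes called lower was 2.51 in it, against 1.81 in library 43 and 1.72 in library 45. This median was 3.63 to 3.92 in intact cells with TAS1440, 1.08 to 1.21 in intact cells with DMSO and 0.49 to 0.79 in KO cells with DMSO. These genes as a set thus had lower medians in the KO with DMSO too. Among the KO libraries with DMSO, library 41 differed from the others. Its median over cholesterol synthesis genes was 4.58, against 5.62 in library 40 and 5.52 in library 42.

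With TAS1440, 858 genes differed between *STING1* KO and intact cells, 194 higher (1.48% of genes tested) and 664 lower (5.06%) in the KO. Without library 44 the counts were 273 higher and 880 lower. The median difference over all genes tested was -0.07 and turned to 0.06 when libraries were centered on their medians, which gave 298 genes higher and 504 lower, and to 0.04 under quantile normalization, which gave 290 higher and 545 lower. With DMSO, 193 genes differed, 60 higher (0.457%) and 133 lower (1.01%) in the KO. Without library 41 there were 92 higher and 179 lower with DMSO. The same direction was called with both agents for 73 genes, 65 lower and 8 higher, which is 8.51% of the genes called with TAS1440 and 37.8% of those called with DMSO. These 2 comparisons share no library. Of the 117 genes called with DMSO and not with TAS1440, 93 had the same sign with TAS1440. For *FRZB*, *SPSB1* and *SYNPO2L* the KO was lower with TAS1440 and higher with DMSO.

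Whether the KO difference itself changed with the inhibitor was tested as an interaction in the same model, the KO difference with TAS1440 minus that with DMSO. It was called for 556 genes, 121 above 0 (0.921%) and 435 below 0 (3.31%). Among the 664 genes lower in the KO with TAS1440, 308 were not called with DMSO and had a called interaction, 288 were not called with DMSO but were not shown to differ from the DMSO comparison, and 65 were called lower with DMSO as well. Among the 194 genes higher in the KO, 60 had a called interaction, 126 did not, and 8 were also called higher with DMSO. The count of interactions leaned on single libraries, with 911 without library 44, 335 without library 43 and 367 without library 11.

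**Figure D1:**
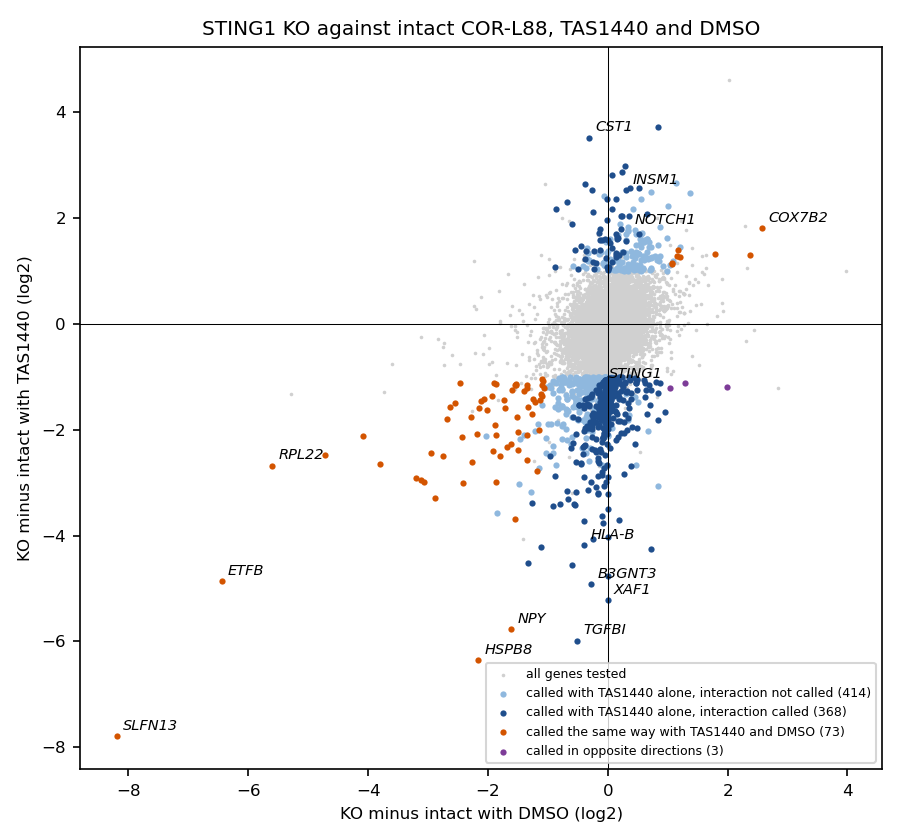
Difference between *STING1* KO and intact cells with DMSO (x axis, log2) and with TAS1440 (y axis, log2) for the 13134 genes tested, 1 point per gene, in which genes at 0 in the KO are placed by the value of the intact cells. Of the 73 genes called the same way with both agents, 65 lie at the lower left with *SLFN13*, while *XAF1*, *TGFBI* and *HLA-B* lie far below 0 with TAS1440 and near 0 with DMSO, and *CST1* far above 0 with TAS1440.

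*STING1* (listed as *TMEM173*; chromosome 5, 138855118 to 138862520 of GRCh37, minus strand), the targeted gene, was low with DMSO, at 0.24, 0.41 and 0.20 in intact and 0.12, 0.36 and 0.10 in KO libraries. With TAS1440 it was 2.54, 2.04 and 2.03 in intact and 1.17, 1.09 and 0.96 in KO libraries. All 3 KO libraries with TAS1440 thus lay below all 3 intact ones and above all KO libraries with DMSO, so that *STING1* mRNA was still found in the KO. KO and intact libraries with TAS1440 did not overlap for 41.3% of all genes tested. *STING1* passed the filter on low values only through intact cells with TAS1440. With TAS1440 KO and intact cells differed by -1.13 (standard error 0.14, limma adjusted *P* = 0.000132). With DMSO they differed by -0.09 (limma adjusted *P* = 0.755), and the interaction was -1.04 (adjusted *P* = 0.00914). RNA-Seq does not measure the protein, and an edited gene can still be transcribed, so these values do not check the KO itself. Of the 17 genes tested within 1000000 bases of *STING1*, itself included, it was the only one called in either comparison.

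Of 17 tested genes of the STING pathway and of nucleic acid sensing, none was called lower in the KO with DMSO. The median difference was -0.31 with TAS1440 and -0.05 with DMSO. With TAS1440, 4 were lower in the KO (23.5%, against 5.06% of all genes tested). Beside *STING1* these were *TLR3*, a sensor of double-stranded RNA (-1.92, standard error 0.40), *DHX58*, a regulator of RNA sensing (-1.65, standard error 0.30), and *CGAS*, the DNA sensor upstream of STING (listed as *MB21D1*). *CGAS* was 4.03, 3.68 and 3.74 in intact cells with TAS1440 and 2.39, 2.76 and 2.45 in the KO, a difference of -1.28 (standard error 0.15, limma adjusted *P* = 7.22e-05). Its values in the KO and in intact cells did not overlap, which holds for 41.3% of all genes tested. With DMSO its difference was -0.43 (adjusted *P* = 0.105), and its interaction of -0.85 was below the size used here. The kinase *TBK1* (-0.31) and the factor *IRF3* (-0.22) were not called. *IFNB1*, a target of the pathway, was listed at no more than 1.06 in any of the 15 libraries, and *CXCL10* at no more than 0.38, so neither could be tested.

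Genes of MHC class I antigen presentation were lower in the KO with TAS1440. Of 18 tested, 9 were called lower (50%, against 5.06% of all genes tested) and none higher. The median difference was -1.01, against -0.07 over all genes. With DMSO none was called, with a median of -0.23. Genes of this pathway were picked for display on these samples before, so the list is not independent evidence of its direction. *HLA-B*, a class I heavy chain (chromosome 6, 31321649 to 31334844 of GRCh37, minus strand), was 7.36, 7.55 and 7.65 in intact cells with TAS1440 and 2.80, 4.91 and 2.31 in the KO. Its values with DMSO were 1.42, 0.69 and 1.14 in intact and 0.16, 1.41 and 0.50 in KO cells, and overlapped. *HLA-B* was thus lower in every KO library with TAS1440, with library 44 the nearest to intact cells. The difference was -4.18 (standard error 0.56, limma adjusted *P* = 0.000241) and the interaction -3.79 (adjusted *P* = 0.0137).

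Among the other heavy chains, *HLA-E* differed by -2.64 (standard error 0.31) and *HLA-C* by -1.56 (standard error 0.25). *HLA-C* had a value of 5.58 to 6.09 with DMSO in intact cells and did not start from near 0. Class I genes are alike in sequence, and reads shared between them may have been divided differently by the quantification. *B2M*, which encodes β2-microglobulin, was 8.90, 8.31 and 8.99 in intact cells with TAS1440 and 6.71, 7.31 and 6.27 in the KO, a difference of -1.97 (standard error 0.30, limma adjusted *P* = 0.000546).

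The transporter subunit *TAP1* was 3.72, 3.45 and 3.67 in intact cells with TAS1440 and 0.88, 1.88 and 0.99 in the KO, a difference of -2.36 (standard error 0.22, limma adjusted *P* = 1.53e-05). Its partner *TAP2* differed by -1.52 (standard error 0.15). Both had called interactions, at -2.23 and -1.16. *TAP1* was near 0 in intact cells with DMSO (mean 0.21), which left little room for a lower KO there. Both *TAP1* and *TAP2* passed the filter on low values only through intact cells with TAS1440. Of the immunoproteasome subunits, *PSMB9* was 6.05, 6.71 and 7.20 in intact cells with TAS1440 and 2.20, 4.56 and 3.01 in the KO (-3.40, standard error 0.51), and *PSMB8* differed by -1.64 (standard error 0.25). *PSMB10*, at 9.67 to 10.60 in intact and 8.86 to 9.66 in KO cells with TAS1440, fell short of the size used here (-0.96, limma adjusted *P* = 0.0134). *NLRC5*, the transactivator of class I genes, differed by -1.06 (standard error 0.24, limma adjusted *P* = 0.00626).

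The chaperones of peptide loading had differences under 0.5 in size. *CALR* differed by 0.11, *PDIA3* by -0.23, *CANX* by -0.43, *TAPBP* by -0.32 and *TAPBPL* by -0.30, and none of them was called. The proteasome activators *PSME1* (-0.26) and *PSME2* (-0.62) and the peptidase *ERAP1* (-0.84) were not called either. Without library 44, 10 of the 18 genes were called lower and the median was -1.25.

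**Figure D2:**
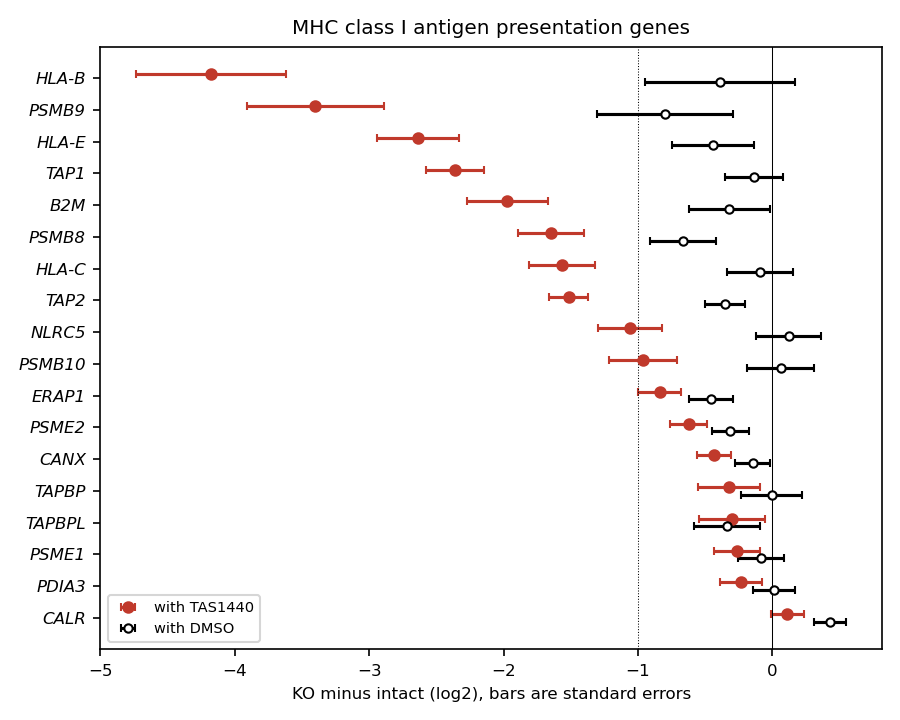
Difference between *STING1* KO and intact cells (x axis, log2, with standard errors) for the 18 tested genes of MHC class I antigen presentation, with TAS1440 (filled) and with DMSO (open). The heavy chains, *B2M*, *TAP1*, *TAP2* and the immunoproteasome genes lie below the dotted line at -1 with TAS1440, apart from *PSMB10* just above it, and the chaperones lie near 0.

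Promoters of this pathway are shown because 9 of its genes were lower in the KO and because the interferon response element is the textbook sequence through which interferon acts on such genes. Of the 18 genes, 15 had a promoter in the RefSeq table of GRCh38.p14, from which the 250 bases before the start are used. Capitals mark GAAA, any 2 bases and GAAA again, read on either strand, a simple form of the interferon-stimulated response element, in which matches may overlap.
*TAP1*, chr6:32853705-32853954, minus strand: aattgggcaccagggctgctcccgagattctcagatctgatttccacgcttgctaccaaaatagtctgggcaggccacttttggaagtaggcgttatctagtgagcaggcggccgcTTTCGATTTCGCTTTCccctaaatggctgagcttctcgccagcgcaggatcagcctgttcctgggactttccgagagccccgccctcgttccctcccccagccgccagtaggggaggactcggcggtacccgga
*B2M*, chr15:44711267-44711516, plus strand: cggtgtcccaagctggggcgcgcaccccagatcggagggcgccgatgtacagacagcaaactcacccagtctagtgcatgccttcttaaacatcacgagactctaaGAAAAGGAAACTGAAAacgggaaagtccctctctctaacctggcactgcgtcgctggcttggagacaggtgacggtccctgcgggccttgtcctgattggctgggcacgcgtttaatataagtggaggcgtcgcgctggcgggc
*HLA-B*, chr6:31357180-31357429, minus strand: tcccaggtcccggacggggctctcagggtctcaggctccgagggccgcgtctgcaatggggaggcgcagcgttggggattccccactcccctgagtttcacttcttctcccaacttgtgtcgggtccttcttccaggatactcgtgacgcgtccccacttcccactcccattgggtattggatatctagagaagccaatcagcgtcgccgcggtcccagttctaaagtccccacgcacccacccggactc
Both *TAP1* and *B2M* hold 2 overlapping matches, and these letters are not in the window of *HLA-B*. They are in 6 of the 15 promoters (40.0%), 3 of 7 with the gene called lower (*B2M*, *TAP1* and *TAP2*) and 3 of 8 with the gene not called (*PSMB10*, *PSME2* and *TAPBP*), against 3.07% of the 27305 promoters of this length in the table. Holding the letters thus did not separate called from uncalled members, and a match is a description of sequence, not a site. GGGA, any base and TTTCC, a simple NF-κB form read on either strand, was in 2 of the 15 (*B2M* and *TAP1*) and in 0.546% of all promoters.

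Interferon-stimulated genes showed the same direction, with 14 of 40 tested called lower in the KO with TAS1440 (35%, against 5.06% of all genes tested). None was called higher, and the median difference was -0.85. With DMSO none was called and the median was -0.03. *XAF1*, a proapoptotic interferon target (chromosome 17, 6658766 to 6678966 of GRCh37), was 4.83, 5.37 and 5.44 in intact cells with TAS1440 and was listed at 0 in all 3 KO libraries with TAS1440, in all 6 with DMSO and in the 3 with TAS1440 plus GSI. It was tested only through the group in which it was found, and the other groups have no spread, so no *P* is given. *LY6E*, a surface protein, was 4.74, 3.16 and 4.39 in intact and 0.00, 2.13 and 1.49 in KO cells with TAS1440, a difference of -2.89 (standard error 0.47). *GBP3* (-2.60), *OAS3* (-2.17), *GBP1* (-1.83), *IFITM3* (-1.81) and *ISG15* (-1.16) were also called. *IFIT2*, *DDX60* and *IFI6*, at -0.63, -0.78 and -0.85, and *BST2*, at -1.42, were not called. *GBP5* had the value furthest above 0 in the list, 0.81, and was not called. Without library 44, 20 of the 40 were called lower, with a median of -1.03. The interferon element as spelled above was in 16 of 32 promoters of the list, 6 of 10 with the gene called lower and 10 of 22 with the gene not called.

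No gene of the interferon receptors and their signaling was called, out of 17 tested with a median of -0.46. *IRF9*, a subunit of the interferon-activated factor ISGF3, missed the size used here by a narrow margin (-0.999, standard error 0.23, limma adjusted *P* = 0.00701). The receptor chains *IFNAR1* and *IFNGR1* were at -0.85 and -0.83, and the transcription factor *IRF1* at -0.54. Without library 44, 2 were called lower. Of 20 genes of NF-κB signaling and its feedback, 6 were lower with TAS1440 (30%, against 5.06% of all genes tested) and none higher, with a median of -0.55. *TNFAIP3*, which encodes the feedback inhibitor A20, was 6.10, 5.20 and 3.41 in intact and 1.75, 3.26 and 1.65 in KO cells with TAS1440 (-2.68, standard error 0.53, limma adjusted *P* = 0.00293). *BCL3*, a coactivator of the pathway, differed by -1.97 (standard error 0.38), and *TNFAIP2* by -2.39 with TAS1440 and by -1.91 with DMSO, called in both, so its difference was already there without the inhibitor.

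Of 12 tested cytokine and chemokine genes, 4 were lower (33.3%, against 5.06% of all genes tested) and none higher. *IL32* was 7.41, 5.83 and 4.92 in intact and 2.29, 2.69 and 2.07 in KO cells with TAS1440 (-3.70, standard error 0.53, limma adjusted *P* = 0.000367), and *IL18*, *CSF1* and *CXCL16* were lower by 1.58, 1.40 and 1.38. *IL18* reached 1 only in intact cells with TAS1440, so it was tested only through that group. The ligands seen by T and NK cells included 4 called lower of 14 tested (28.6%) and none higher. *CD274*, which encodes the checkpoint ligand PD-L1, was 4.88, 3.82 and 3.01 in intact and 0.75, 2.18 and 0.78 in KO cells with TAS1440, a difference of -2.67 (standard error 0.43, limma adjusted *P* = 0.000789) with an interaction of -2.66. *ULBP2*, a ligand of the NK cell receptor NKG2D, differed by -1.85, the death receptor gene *FAS* by -1.76 and *CD47*, a signal against phagocytosis, by -1.25. For MHC class II, 10 of 14 listed genes were too low to test, and *CTSS*, a lysosomal protease, was the single gene called (-1.24). *CD74*, the invariant chain, was 0.87 to 2.80 in intact cells with TAS1440 and listed at 0 in all 6 KO libraries.

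**Figure D3:**
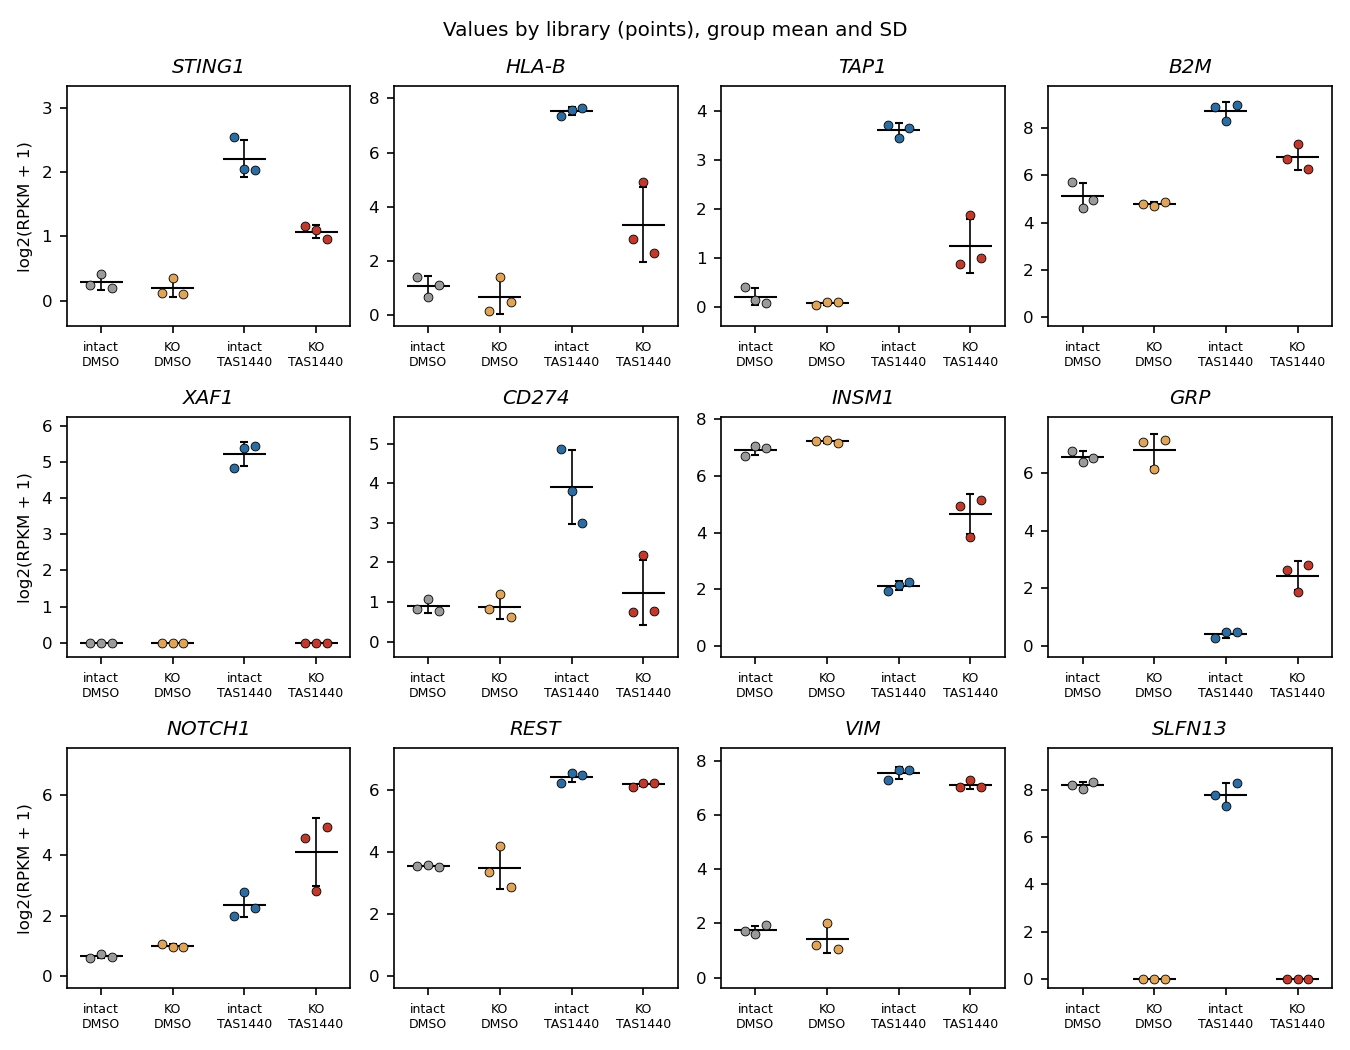
Values of 12 genes in each library (y axis, log2(RPKM + 1)) for intact and KO cells with DMSO and with TAS1440, with the mean and SD of 3 libraries. The MHC class I genes, *XAF1* and *CD274* of KO cells with TAS1440 sit below intact cells with TAS1440, *INSM1*, *GRP* and *NOTCH1* sit above them, *REST* and *VIM* are near them, and *SLFN13* is at 0 in KO cells with either agent.

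Several neuroendocrine genes were higher in KO than in intact cells with TAS1440. *INSM1*, a neuroendocrine zinc-finger factor, was 1.95, 2.16 and 2.25 in intact and 4.94, 3.86 and 5.15 in KO cells with TAS1440 (2.53, standard error 0.25). *GRP*, which encodes the peptide gastrin-releasing peptide, was 0.26, 0.47 and 0.49 against 2.65, 1.86 and 2.81 (2.04, standard error 0.26).

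The neuroendocrine list as a whole did not move one way. Of 45 tested genes, 5 were higher (11.1%, against 1.48% of all genes tested), among them these and *NKX2-1* (1.36) and *SYT4* (1.01). In this list 1 gene was lower, and the median difference was 0.09. *CHGA* (-0.55), *SYP* (0.08) and *NCAM1* (0.54), classic markers of secretory granules, synaptic vesicles and adhesion, were not called. The gene called lower was *NEUROD1*, at 5.87, 6.33 and 6.50 in intact and 4.99, 5.88 and 4.72 in KO cells with TAS1440, where library 44 overlapped with intact cells (-1.04, standard error 0.25).

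Among 26 tested Notch receptors, ligands and targets, 6 were higher with TAS1440 (23.1%, against 1.48% of all genes tested) and 1 lower. None was called with DMSO, and the median with TAS1440 was 0.11. *NOTCH1* (chromosome 9, 139388885 to 139440500 of GRCh37) was 1.99, 2.79 and 2.26 in intact and 4.58, 2.82 and 4.93 in KO cells with TAS1440, so that library 44 was level with the highest intact library. Its difference was 1.76 (standard error 0.39, limma adjusted *P* = 0.00524), and the interaction of 1.42 was not called (adjusted *P* = 0.125). The ligands *DLL4* (2.18, standard error 0.39) and *DLL3* (1.70) and the glycosyltransferase *LFNG*, which modifies Notch receptors (2.36, standard error 0.33), were higher, and each was lower in intact cells with TAS1440 than with DMSO. *HES1*, a target that Notch raises directly, went the other way, at 4.93, 4.18 and 4.47 in intact and 3.26, 2.98 and 3.99 in KO cells with TAS1440 (-1.12, standard error 0.24, interaction -1.74). *NOTCH2* differed by 0.16 and *HEY1*, another target, by 0.01.

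*REST*, the repressor of neuronal genes, was 6.25, 6.57 and 6.48 in intact and 6.11, 6.25 and 6.25 in KO cells with TAS1440, against 2.89 to 4.20 in the 6 libraries with DMSO. *VIM*, which encodes the mesenchymal filament vimentin, was 7.32, 7.70 and 7.70 in intact and 7.05, 7.31 and 7.06 in the KO, against 1.06 to 2.03 with DMSO. Both were thus far above the DMSO level in KO cells, and neither was called between KO and intact cells (-0.23, standard error 0.23, and -0.43, standard error 0.22). Among the genes of LSD1 and its CoREST complex, none of 13 was called. *KDM1A*, which encodes LSD1, differed by 0.42.

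In the group with TAS1440 plus GSI, *NOTCH1* was 6.73, 6.71 and 6.75 and *HLA-B* 3.00, 1.56 and 1.85. These are intact cells and a separate treatment, and their values stand beside those of the KO as levels only.

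Although *VIM* was not called, 19 of 40 tested mesenchymal genes were lower in the KO with TAS1440 (47.5%, against 5.06% of all genes tested). None was higher, and the median was -1.01, against 1 lower with DMSO and a median of -0.14. *TGFBI*, an extracellular matrix protein induced by TGF-β, was 7.97, 8.93 and 8.95 in intact and 2.60, 4.15 and 1.15 in KO cells with TAS1440, and 1.77 to 3.05 in intact cells with DMSO, so the KO libraries were near the DMSO level. The difference was -5.98 (standard error 0.61, limma adjusted *P* = 3.13e-05). *CD44*, the receptor for hyaluronan, was 3.87, 4.79 and 2.65 in intact cells with TAS1440 and at most 0.06 in the KO (-3.75, standard error 0.39). It was tested only through intact cells with TAS1440, the group in which it was high. The caveolins *CAV2* (-4.22, standard error 0.32) and *CAV1* (-3.31) and *ANXA1* (-3.21) were lower as well, while *CDH2* (0.19), *ZEB1* (0.04) and *SPARC* (0.90) were not called. With DMSO *CAV2* was 0.85 to 1.33 in intact cells and 0 in the KO, and was not called (-1.12, limma adjusted *P* = 0.0614). *AXL*, a receptor tyrosine kinase, did not pass the filter, with 0.82 to 2.82 in intact cells with TAS1440 and 0 in all 6 KO libraries.

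Integrins and laminins held the largest share called among the lists of at least 10 tested genes. With TAS1440, 11 of 20 were lower (55%, against 5.06% of all genes tested) and none higher, with none called with DMSO. *LAMB3*, a laminin chain of basement membranes, was 3.60, 3.58 and 2.93 against 0.11, 0.70 and 0.13 (-3.06, standard error 0.19). It reached 1 only in intact cells with TAS1440, so it was tested only through the group in which it was high. *ITGA2*, a collagen receptor subunit, differed by -2.44 (standard error 0.50), with library 44 at 5.38 overlapping the lowest intact library at 5.36. *ITGB1*, the common β subunit, differed by -0.31. Of 30 epithelial genes, 3 were lower (10%, against 5.06% of all genes tested), among them *MUC1* (-1.85) and *KRT7* (-1.13). *KRT7* too was tested only through intact cells with TAS1440. *EPCAM* (-0.12) and *CDH1* (-0.89) were not called.

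**Figure D4:**
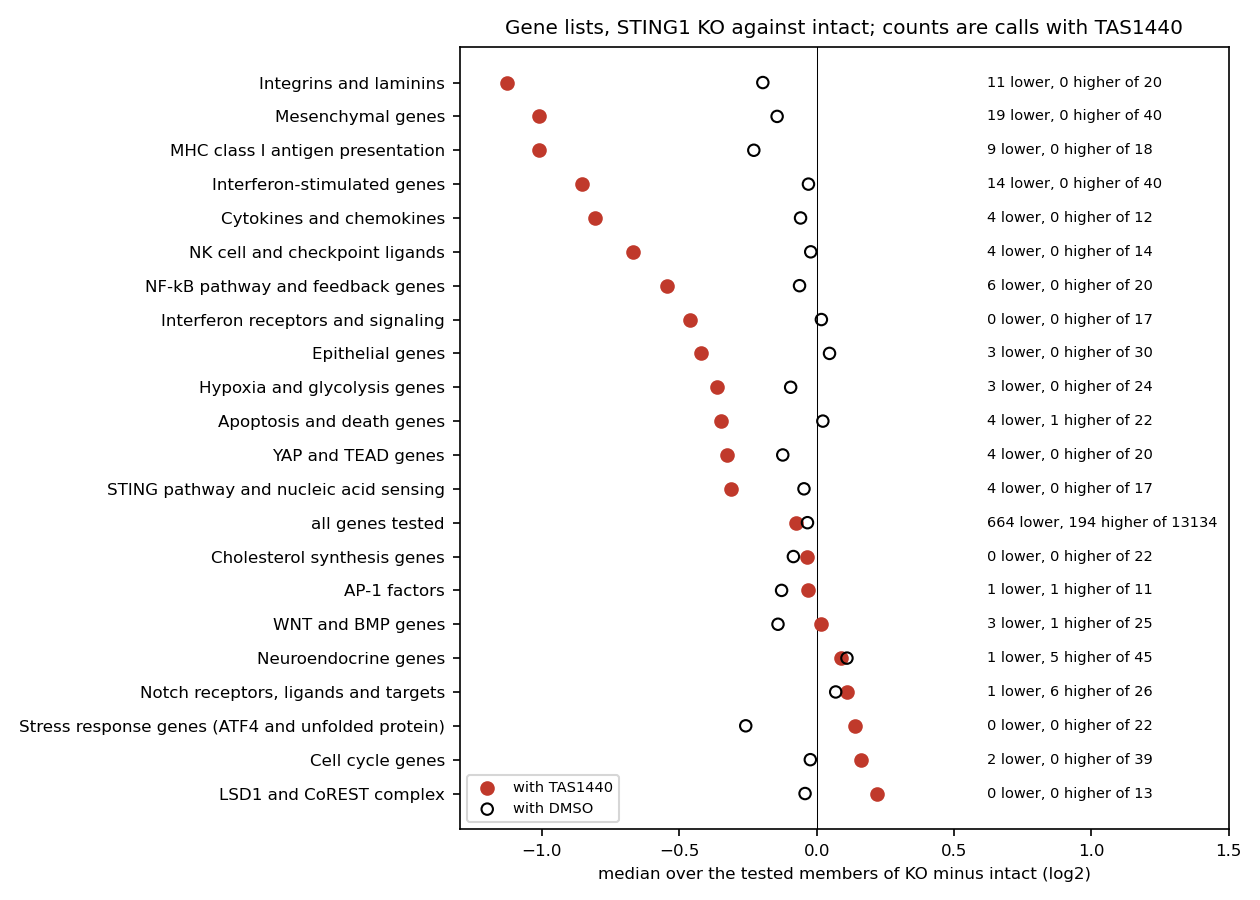
Median difference between *STING1* KO and intact cells (x axis, log2) over the tested members of each gene list with at least 10 tested genes, with TAS1440 (filled) and DMSO (open), and the number of members called with TAS1440 at the right. Integrins and laminins, mesenchymal genes and MHC class I genes have medians near or below -1 with TAS1440, and the DMSO medians of all lists lie within 0.3 of 0.

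Of 22 apoptosis genes, 4 were lower (18.2%), among them *MLKL*, the executor of necroptosis (-1.70, standard error 0.24), *CASP8* (-1.53, standard error 0.16) and *CASP10* (-1.51, standard error 0.16). *CASP10* reached 1 only in intact cells with TAS1440 and was tested only through that group. The survival gene *BCL2* was called higher, at 3.87, 4.71 and 4.45 in intact and 6.56, 5.96 and 6.65 in KO cells (2.04, standard error 0.21). *CCND1*, which encodes cyclin D1, was lower (-1.77, standard error 0.20) and, with *CDK6*, was 1 of the 2 called among 39 cell cycle genes. This is 5.13% of the list, near the 5.06% called lower over all genes tested. *CDK6* was lower with DMSO too (-1.14 with TAS1440 and -1.55 with DMSO). The proliferation genes *MKI67* (0.67) and *TOP2A* (0.42) were not called. Of 24 hypoxia and glycolysis genes, *PFKP* (-1.28), *HK1* (-1.04) and *HK2* (-1.02) were lower (12.5% of the list). None of 22 cholesterol synthesis genes and none of 22 stress response genes was called. Of 25 WNT and BMP genes 3 were lower (12%), *DKK3* (-1.57), *BMP4* (-1.53) and *WNT7B* (-1.21), and *ID2* was higher (1.33). *WNT7B* was at -0.95 with DMSO as well (limma adjusted *P* = 0.00453), short of the size used here, and with DMSO *SMAD6* was called lower (-1.48) and *WNT11* higher (1.16). Of 20 YAP and TEAD genes 4 were lower (20%, against 5.06% of all genes tested), *F3* (-2.20), *CTGF* (-1.89), *CRIM1* (-1.31) and *ANKRD1* (-1.13). *CRIM1*, like *CCND1* and *MLKL*, passed the filter on low values only through intact cells with TAS1440. With DMSO, 4 of the YAP and TEAD list were lower too (*PTPN14*, *ANKRD1*, *CYR61* and *AMOTL2*), against 1.01% of all genes tested. This makes it the list with the most calls without the inhibitor.

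By size, the genes lower in the KO with TAS1440 that were not called with DMSO and had a called interaction were led by *TGFBI*, *XAF1*, *B3GNT3*, *GJA1*, *AGR2* and *EMP1*. *B3GNT3*, a glycosyltransferase, was 6.55, 6.39 and 5.90 in intact and 1.42, 1.38 and 1.32 in KO cells with TAS1440 (-4.91, standard error 0.25). *AGR2*, an epithelial disulfide isomerase, was 4.90, 4.42 and 5.05 against 0.27, 0.32 and 0.11 (-4.56, standard error 0.19). It was tested only through intact cells with TAS1440. With DMSO *AGR2* was 0.52 to 0.71 in intact cells and at most 0.04 in the KO, without overlap. *GJA1*, which encodes the gap junction protein connexin 43, was 4.28, 5.68 and 4.33 in intact cells with TAS1440 and was listed at 0 in all 9 other libraries of the 4 groups. *EMP1*, a membrane protein, was 8.75, 8.68 and 7.87 against 2.89, 5.06 and 3.81 (-4.51, standard error 0.44). With DMSO *EMP1* was 0.73, 1.90 and 1.34 in intact cells and 0 in the KO. That difference was not called (-1.32, limma adjusted *P* = 0.0967), though the libraries did not overlap.

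Those higher in the KO included *CST1*, *DACT1*, *RNF186*, *SPOCK3* and *CHST1*. The protease inhibitor *CST1* was 4.10, 4.35 and 3.77 in intact and 8.52, 7.28 and 6.98 in KO cells with TAS1440, and was listed at 0 in all but 1 library with DMSO (3.52, standard error 0.37). *SPOCK3*, a matrix proteoglycan, was 1.07, 1.20 and 1.53 against 4.27, 3.29 and 4.20 (2.65, standard error 0.24) and at most 0.87 with DMSO. For these genes and for *DACT1*, a regulator of WNT signaling (2.87, standard error 0.36), the KO libraries with TAS1440 were thus above all libraries with DMSO. The ubiquitin ligase *RNF186* (2.81) was 6.93 to 7.41 in intact cells with DMSO, at most 1.89 in intact cells with TAS1440 and 3.63 to 5.14 in KO cells with TAS1440. The sulfotransferase *CHST1* (2.58) was 2.52 to 2.88, 0.62 to 1.01 and 2.42 to 3.93 in the same groups.

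Of the 73 differences already there with DMSO, 65 were lower in the KO. *SLFN13*, a ribonuclease of the Schlafen family (chromosome 17, 33762115 to 33775856 of GRCh37, minus strand), was 8.21, 8.04 and 8.32 with DMSO and 7.76, 7.32 and 8.30 with TAS1440 in intact cells and was listed at 0 in all 6 KO libraries (limma adjusted *P* = 1.78e-11 with TAS1440 and 9.18e-12 with DMSO). Its neighbors on the same strand, chosen after their values were seen, were at 0 in all 6 KO libraries too: *SLFN12* had been 1.28, 1.54 and 1.46 in intact cells with DMSO, and *SLFN11*, a gene known for sensitivity to DNA damage, 0.90, 1.82 and 1.36 in intact cells with TAS1440. *SLFN5*, further along the chromosome, was not called (-0.48 with TAS1440). A second run of such genes, also chosen after their values were seen, lies on chromosome 1. *KCNAB2*, a potassium channel subunit (6050987 to 6161253), and *GPR153*, an orphan receptor (6307413 to 6321158), were listed at 0 in all 6 KO libraries. *RPL22*, a ribosomal protein gene between them (6245080 to 6269449), was 5.78, 5.52 and 5.50 in intact cells with DMSO, 0 in the 3 KO libraries with DMSO and 1.22, 1.33 and 0.86 in the KO with TAS1440. Their neighbors *NPHP4* and *ACOT7* differed by -0.25 and -0.38 with TAS1440 and were not called. Only RNA was measured, and the state of the DNA at these places was not tested. In bulk samples, fewer cells that express a gene and less RNA per cell cannot be told apart.

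*ETFB*, a mitochondrial electron carrier, was 6.54, 6.66 and 6.96 with DMSO and 7.16, 7.60 and 7.42 with TAS1440 in intact cells, against 0.00, 0.82 and 0.00 and 2.05, 3.29 and 2.25 in KO cells (-4.86, standard error 0.29, limma adjusted *P* = 2.99e-07 with TAS1440). *INPP5D*, which encodes the phosphatase SHIP1, differed by -3.30 with TAS1440 and by -2.88 with DMSO. For *HSPB8*, a small heat shock protein, and *NPY*, a neuropeptide, the KO was lower with DMSO and the interaction was called as well: *HSPB8* was 9.40, 10.34 and 9.82 in intact and 2.98, 4.87 and 2.65 in KO cells with TAS1440, with 1.68 to 2.74 and 0 with DMSO, and *NPY* was 5.66, 6.24 and 5.41 in intact cells with TAS1440 and 0 in all 6 KO libraries. The interaction of *NPY* therefore reflects only the change of intact cells. *DSC2*, a desmosomal cadherin, was 3.29, 4.45 and 3.32 in intact cells with TAS1440, 1.42 to 1.71 with DMSO and 0 in all KO libraries. Of the 664 genes lower in the KO with TAS1440, 10 were listed at 0 in all 6 KO libraries, and 6 of these were called with DMSO. No gene tested was at most 0.25 in all 6 intact libraries and at least 1 in all 6 KO libraries, whereas 6 genes with a known position showed the reverse.

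Of the 8 genes higher in the KO with both agents, *COX7B2*, a subunit of cytochrome oxidase, was 2.71, 1.95 and 1.98 in intact and 3.97, 3.65 and 4.42 in KO cells with TAS1440 (1.80, standard error 0.39, limma adjusted *P* = 0.00503) and differed by 2.57 with DMSO. *FOXB1*, a forkhead factor, was 1.61, 2.06 and 1.96 against 3.26, 2.76 and 3.41 (1.27, standard error 0.20) and differed by 1.21 with DMSO. *JUND*, a subunit of the AP-1 factor, was higher by 1.15 with TAS1440 and 1.07 with DMSO, and *TMEM35* by 1.40 and 1.17. *RN7SL2*, *ZNRF2P1* and *HIST1H2BJ* (1.30, 1.32 and 1.28) have near-identical copies elsewhere in the genome, and their values are uncertain for that reason. The number of genes called the same way with both agents was 54 without library 42 and 81 without library 41 or without library 44.

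By chromosome, 13033 of the genes tested had a position in the GENCODE annotation of GRCh37. On chromosome 18, the median difference over 188 genes was 0.27 with TAS1440 and 0.27 with DMSO, and 147 and 152 of the genes had a value above 0, which is 78.2% and 80.9%, against 41.8% and 44.6% of all genes tested. The other chromosomes had medians between -0.15 and -0.01 with TAS1440 and between -0.14 and 0.16 with DMSO. Relative to the mean of intact cells with DMSO, the median over chromosome 18 was 0.26 to 0.36 in the 6 KO libraries and -0.02 to 0.04 in the 6 intact libraries, and the groups did not overlap. With TAS1440, 12 of these genes were called higher (6.38%) and 10 lower (5.32%), against 1.48% and 5.06% of all genes tested, and with DMSO 1 was called higher and 3 lower. Of the genes named above, *BCL2* and *GRP*, higher in the KO with TAS1440, and *DSC2*, lower, lie on this chromosome. With DMSO *BCL2* and *GRP* differed by 0.36 and 0.23 and were not called. Copy number was not measured.

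**Figure D5:**
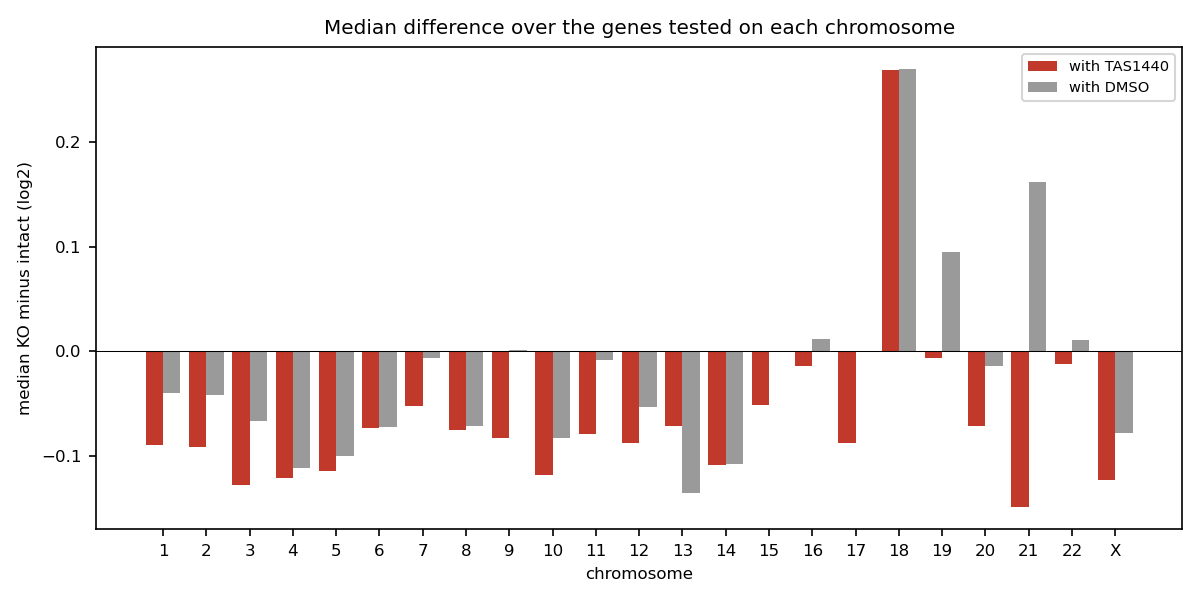
Median difference between *STING1* KO and intact cells (y axis, log2) over the genes tested on each chromosome (x axis), with TAS1440 and with DMSO. Chromosome 18 stands at 0.27 with both agents, while the other chromosomes lie between -0.15 and 0.16.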

How the data were processed

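The authors sequenced polyA RNA in pairs, trimmed reads with Cutadapt, used STAR for alignment (hg19) and RSEM for quantification, and formed RPKM values scaled by the trimmed mean of M values. The deposited table holds log2 values of RPKM with 1 added, read from the floor of 0 and the axes of the study, and no counts, so depth is known only relatively and limma with a trend stood in for the count model of the study. limma 3.58.1 in R 4.3.3 was fitted to 5 groups of 3 COR-L88 libraries, and the code was tested on simulated data. *P* values are two-sided and adjusted over the 13134 genes. Lists of genes are described by counts and medians beside all genes. Positions are those of a GENCODE annotation lifted to GRCh37, the same coordinates as hg19, and 808 symbols were matched through older names. Promoters were matched for 77.4% of the genes lower and 72.2% of those higher, under the 80% set as a minimum, so motif shares over called genes are void and are given for 2 lists only. Named genes are *STING1*, up to 6 per direction and class (called the same way with DMSO, or not called with DMSO with a called interaction) without overlap between groups and with a mean of at least 2 in the higher group, up to 3 called members per list and direction, members that define a list, and the genes the study names. Further list members are named with their values. Members and lists were chosen with earlier results of these data known. Alternatives were no filter, a pseudocount of 0.1, quantile normalization, median-centered libraries, fewer libraries in the fit, no variance trend, no minimum fold and leaving out each library. Some genes the rule would name are not reported here. Python 3.11.15 and matplotlib 3.10.9 drew the figures.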

Additional observations from a re-analysis of the deposited data

Results flagged for a closer look

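The KO difference with TAS1440 differed from that with DMSO, tested as an interaction in limma, for 556 genes. Named genes among them are given here with the log2 value of the interaction, in which a negative value means that the KO was further below intact cells with TAS1440 than with DMSO. Among immune genes it was -3.79 for *HLA-B*, -2.60 for *PSMB9*, -2.20 for *HLA-E*, -2.23 for *TAP1*, -1.16 for *TAP2*, -1.65 for *B2M*, -1.47 for *HLA-C*, -1.18 for *NLRC5*, -1.04 for *STING1* (listed as *TMEM173*), -1.77 for *DHX58*, -2.49 for *LY6E*, -3.08 for *TNFAIP3*, -2.46 for *BCL3*, -3.90 for *IL32*, -1.54 for *IL18*, -2.66 for *CD274* and -1.66 for *ULBP2*. Among genes of the matrix, surface and epithelium it was -5.48 for *TGFBI*, -4.63 for *B3GNT3*, -3.96 for *AGR2*, -3.19 for *EMP1*, -3.10 for *CAV2*, -3.68 for *CD44*, -2.99 for *LAMB3*, -2.13 for *MUC1*, -1.23 for *KRT7* and -1.16 for *CRIM1*. Among neuroendocrine and Notch genes it was 2.22 for *INSM1*, 1.80 for *GRP*, 2.22 for *LFNG*, 2.11 for *DLL4*, -1.53 for *NEUROD1* and -1.74 for *HES1*. Of the other genes above 0, it was 3.84 for *CST1*, 3.02 for *SPOCK3*, 2.63 for *DACT1*, 2.75 for *RNF186*, 2.06 for *CHST1*, 1.68 for *BCL2* and 1.58 for *ETFB*, whose KO value was closer to intact cells with TAS1440. Of the other genes below 0, it was -4.19 for *HSPB8*, -1.76 for *CCND1*, -1.60 for *PFKP*, -1.04 for *HK1*, -1.64 for *DKK3*, -1.85 for *MLKL*, -1.05 for *CASP8* and -1.52 for *CASP10*. *NPY* and *DSC2* were listed at 0 in all 6 KO libraries, so their interaction reflects only the intact cells with and without TAS1440. It does not measure a change of the KO effect, and only its adjusted *P* in limma is given, 0.00149 and 0.00924. *XAF1* and *GJA1* were at 0 in all groups compared but intact cells with TAS1440, and no value of their interaction is given. *STING1*, *TAP1*, *IL18*, *B3GNT3*, *CD44*, *LAMB3*, *CRIM1*, *CCND1*, *DKK3*, *MLKL* and *CASP10* averaged at most 0.28 in intact cells with DMSO. A lower KO could hardly show there, so their interactions largely repeat the differences with TAS1440. *NLRC5*, *LY6E*, *TAP2*, *IL32*, *KRT7*, *AGR2*, *HLA-E*, *PSMB9*, *CD274* and *ULBP2* averaged 0.32 to 0.91 there, which also limits how far a KO could be lower. *HSPB8*, *EMP1*, *CAV2*, *PSMB9* and *LY6E* were listed at 0 in all 3 KO libraries with DMSO. Their difference with DMSO could not exceed the intact mean (2.16, 1.32, 1.12, 0.80 and 0.40). *LAMB3*, *CASP10*, *IL18* and *KRT7* reached 1 only in intact cells with TAS1440. *STING1*, *TAP1*, *TAP2*, *CD44*, *AGR2*, *CCND1*, *CRIM1* and *MLKL* reached 1 in fewer than 3 libraries outside that group, so they too were tested only through it.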

How the results depend on the processing

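With a pseudocount of 0.1, 372 genes were called with DMSO and 158 the same way with both agents, and fitting only the 6 libraries with DMSO gave 113. With no minimum fold the counts were 3565 with TAS1440, 710 with DMSO, 1041 interactions and 291 in both. Leaving out 1 library at a time gave 683 to 1153 genes with TAS1440, 125 to 271 with DMSO, 335 to 911 interactions and 54 to 81 in both. The lowest came without library 43 (TAS1440, interactions) or 42 (DMSO, both), and the highest without library 44 (TAS1440, interactions, both) or 41 (DMSO, both). The other totals, with all libraries kept in the groups compared, stayed within 1.5 times those of the report. Of the counts by direction with the minimum fold kept, 345 genes were higher with TAS1440 under the pseudocount of 0.1, and those higher with both agents ranged from 5 to 15. Among the 93 named genes, 1698 of 1767 values under the alternatives kept direction and side of the thresholds, and 1 changed sign, *NOTCH2* without library 13 (-0.10, against 0.45 without library 14). Of the 81 called named genes, 18 lost the call in at least 1 alternative. The interaction split of 121 above and 435 below 0 became 189 and 418 under quantile normalization, 176 and 332 with median centering and 174 and 340 with the pseudocount of 0.1. No paired analysis was possible because the groups compared share no library numbers. Depth is known only as a relative size, so no floor in reads can be given for genes listed at 0.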
